A study of Mus musculus with 12 samples.

Results

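The enteric neuron genes Vip, Nos1, Chat, Ret, Hand2, Elavl4, Tubb3, Uchl1 and Snap25 were followed through RNA sequencing of 12 libraries of mouse rectum. They are 9 of the 27785 genes in the deposited table and were taken by symbol. The mice of the Apc groups had floxed alleles of Apc, a tumour suppressor and brake on Wnt signalling, and Cre recombinase made active by tamoxifen. Lgr5, known from stem cells of the intestine, drove Cre in the Lgr5-Apc group (Lgr5creER;APC flox, n = 4), and Cdx2, a transcription factor gene of the hindgut lining, drove it in the Cdx2-Apc group (CDX2creER;APC flox, n = 3). The Lgr5-Cdx2-Apc group carried both drivers (Lgr5creER;CDX2creER;APC flox, n = 2). The 3 control samples are titled WT, while their genotype field reads CDX2creER;APC flox(WT), so whether they held Cre or floxed Apc is unclear. A course of tamoxifen at 25 mg/kg on 5 days stands in the protocol of every sample, but the control samples lack the tamoxifen entry of their own, so whether they were injected is unclear too. Strain, age and sex are not stated in the labels, nor whether samples came from separate animals, so p-values measure only the spread between these samples.

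Neurons of the gut lie in ganglia of the myenteric plexus, between the muscle layers, and of the submucosal plexus. They descend from the neural crest, move contractions, secretion and blood flow without orders from the brain, and are wrapped by enteric glia. Both Cre drivers are known from epithelium, a different lineage. Vip encodes vasoactive intestinal peptide, and Nos1 the neuronal nitric oxide synthase; both are made by inhibitory motor neurons that relax gut muscle. Chat encodes choline acetyltransferase, which makes the acetylcholine of excitatory neurons. Ret is the receptor through which glial cell line-derived neurotrophic factor keeps enteric progenitors alive and moving, and Hand2 is a transcription factor needed for enteric neurons to mature. Elavl4 is a neuronal RNA-binding protein (HuD), Tubb3 the neuronal beta-tubulin, Uchl1 the abundant neuronal ubiquitin hydrolase PGP9.5, and Snap25 a SNARE protein that fuses transmitter vesicles with the membrane.

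Of these genes, 3 stand for the patterns described below, Vip and Hand2 for those that were lower in the Lgr5-Cdx2-Apc libraries and Chat for the one that did not move with the others, and their promoters are shown for that reason. Each is the RefSeq sequence on GRCm38.p6 from 250 bases before to 50 after the annotated start, on the coding strand. They lie at chr10:5638968-5639267 on the plus strand for Vip, chr8:57320733-57321032 on the plus strand for Hand2 and chr14:32465860-32466159 on the minus strand for Chat. Capitals mark 3 motifs, searched on both strands. One is TGACG, the core of the cAMP response element through which many neuropeptide genes answer to activity, which on the opposite strand appears as CGTCA. Another is the TATA box, TATAAA, where the general transcription machinery binds in a minority of promoters. The last is the CCAAT box, which on the opposite strand appears as ATTGG and is common in promoters of many kinds. The 3 motifs share no overlapping match in the sequences shown.
Vip: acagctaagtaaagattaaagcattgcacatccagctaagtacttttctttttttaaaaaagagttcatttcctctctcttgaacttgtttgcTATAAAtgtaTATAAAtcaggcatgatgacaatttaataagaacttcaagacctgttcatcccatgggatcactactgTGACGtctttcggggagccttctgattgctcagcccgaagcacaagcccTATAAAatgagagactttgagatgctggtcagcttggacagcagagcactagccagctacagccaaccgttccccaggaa
Hand2: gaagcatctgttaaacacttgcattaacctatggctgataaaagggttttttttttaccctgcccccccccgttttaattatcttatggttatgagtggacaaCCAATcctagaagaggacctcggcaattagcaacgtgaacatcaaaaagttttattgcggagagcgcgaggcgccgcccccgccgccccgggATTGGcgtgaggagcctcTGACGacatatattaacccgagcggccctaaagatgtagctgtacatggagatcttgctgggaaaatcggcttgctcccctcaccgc
Chat: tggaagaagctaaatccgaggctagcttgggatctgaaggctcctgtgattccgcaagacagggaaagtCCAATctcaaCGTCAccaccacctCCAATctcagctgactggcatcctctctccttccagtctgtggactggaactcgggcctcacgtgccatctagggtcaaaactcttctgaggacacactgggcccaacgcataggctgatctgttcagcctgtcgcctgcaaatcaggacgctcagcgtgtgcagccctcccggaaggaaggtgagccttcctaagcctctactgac
In Vip, TGACG began 79 bases before the start and TATAAA 30 bases before it, with 2 further TATAAA matches 147 and 157 bases before it. Hand2 held TGACG 37 bases before its start and CCAAT or its reverse 147 and 55 bases before it. Chat held CGTCA 171 bases and CCAAT 181 and 157 bases before its start. Of the 7 members in the promoter table, 5 held TGACG on either strand in at least 1 listed start, against 20.8% of all 32851 promoters. TATAAA was found in 1 of the 7, against 13.6%, and CCAAT in 4 of the 7, against 37.4%. Elavl4 has 4 starts in the table, so its chance of holding a motif is higher than that of a single promoter. Ret and Snap25 were not matched. These matches describe letters only, and no binding was measured.

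The values are FPKM, read fragments per length of transcript and per size of library, which allows for gene length and library size. It does not allow for differences in RNA make-up between libraries, and how these were scaled to each other is not given. Their depth in reads is unknown, and their totals ran from 451297 to 728462 per library. Low values need care: Gapdh, a glycolytic enzyme of every cell, was listed at only 0.14 to 1.13 FPKM, so a value at or near 0 can be a failed estimate. Apc itself, whose recombined allele may still give transcript, lay at 15.9 to 18.8 FPKM in control and at 13.5 and 15.0 with both drivers, and does not check the labels. The libraries differed in tissue make-up. Markers of squamous epithelium, which belongs to skin and the anal canal rather than the rectum, had a mean log2(FPKM + 1) of at least 8.75 in Lgr5-Apc replicates 2 and 3 and in both Lgr5-Cdx2-Apc libraries and of 6.81 in control replicate 1, and of at most 4.91 in the other 7. Skeletal muscle markers were at 4.37 to 4.63 in Lgr5-Apc replicate 2 and both Lgr5-Cdx2-Apc libraries and at most 1.85 in the other 9. In tissue as a whole, fewer cells of a type and less RNA per cell cannot be told apart.

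Vip and Uchl1 were the highest of the genes in control rectum, at 11.9 ± 5.06 and 10.7 ± 5.81 FPKM (SD, n = 3), and their ranges overlapped. Hand2 (6.08 ± 1.51) and Snap25 (6.003 ± 2.22) followed and did not differ beyond their spread. Nos1 (3.55 ± 0.734), Tubb3 (3.23 ± 1.29) and Ret (2.86 ± 1.20) formed a middle range, then came Elavl4 (1.62 ± 0.547). Chat was the lowest, at 0.194 ± 0.141 FPKM. Within the control group, replicate 1 was the lowest for 8 of the 9 genes, Hand2 being the exception, and it was also the control library with the highest squamous level.

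**Figure D1:**
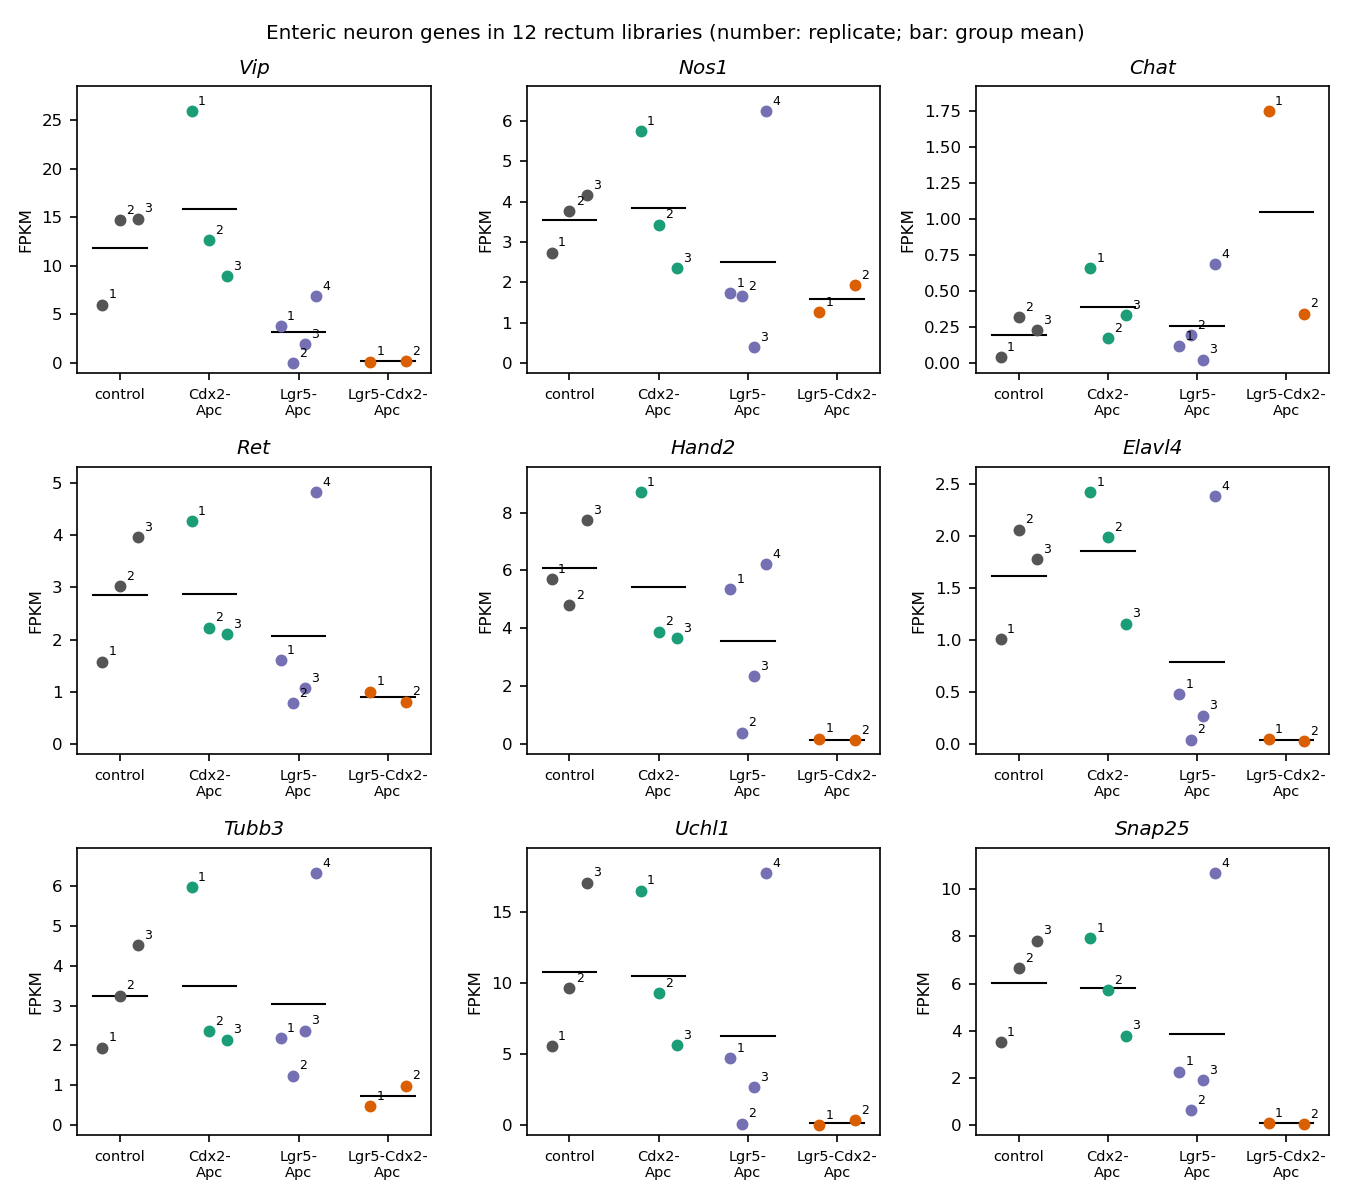
FPKM of the 9 genes (vertical axis, linear, a scale per gene) in each library by group, with the replicate number beside each point and a bar at the group mean. For every gene but Nos1, Ret, Tubb3 and Chat, both Lgr5-Cdx2-Apc points lie below 0.32 FPKM. Among the Lgr5-Apc points, replicate 2 is the lowest for every gene but Nos1 and Chat, where replicate 3 is. Replicate 4 is the highest of that group for every gene, inside the control range for Vip and Hand2 and above it for the others.

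The peptide gene Vip fell below 1 FPKM in both Lgr5-Cdx2-Apc libraries. Vip is on chromosome 10 (5639218-5647617, plus strand, GRCm38), and its promoter is the first shown above. Control replicates 1 to 3 had 6.003, 14.7 and 14.8 FPKM and Cdx2-Apc replicates 1 to 3 had 25.9, 12.7 and 8.96. The Lgr5-Apc replicates 1 to 4 had 3.79, 0, 1.95 and 6.91 FPKM, and the Lgr5-Cdx2-Apc libraries 0.131 and 0.211. Both Lgr5-Cdx2-Apc values lay below all control and Cdx2-Apc values, while Lgr5-Apc replicate 2, listed at 0, was lower still. On the log2(FPKM + 1) scale, which understates differences of low genes, the difference of Lgr5-Cdx2-Apc from control was -3.36 ± 0.76 (SE) for Vip (limma, adjusted p = 0.0172) and that from Cdx2-Apc -3.72 ± 0.76 (adjusted p = 0.0103).

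Nos1 on chromosome 5 (117781032-117958840, plus strand), which inhibitory motor neurons also make, differed less. Its values were 2.73, 3.76 and 4.16 FPKM in control, 5.76, 3.43 and 2.35 in Cdx2-Apc, 1.74, 1.66, 0.395 and 6.24 in Lgr5-Apc, and 1.26 and 1.94 in Lgr5-Cdx2-Apc. The Lgr5-Cdx2-Apc values lay below all control and Cdx2-Apc values but inside the Lgr5-Apc range. The log2 difference of Lgr5-Cdx2-Apc from control was -0.81 ± 0.56 and did not pass (adjusted p = 0.311), nor did that from Cdx2-Apc (-0.85 ± 0.56, adjusted p = 0.278). Nos1 is also known from skeletal muscle fibres, whose markers were high in these 2 libraries, and the part of muscle in its value was not tested.

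Chat on chromosome 14 (32408203-32465989, minus strand) went the other way. It was at 0.0388, 0.316 and 0.228 FPKM in control, 0.659, 0.171 and 0.331 in Cdx2-Apc, 0.115, 0.193, 0.0230 and 0.684 in Lgr5-Apc, and 1.75 and 0.342 in Lgr5-Cdx2-Apc. Only Lgr5-Cdx2-Apc replicate 1 reached 1 FPKM, so Chat was not tested; with no filter on low values its difference from control was 0.69 ± 0.30 log2 and did not pass (limma, adjusted p = 0.157). Slc18a3, the vesicular acetylcholine transporter, is encoded on the same strand inside the Chat locus, so the authors' counting could share reads between them. It stood at 0.462, 1.34 and 1.73 FPKM in control and at 0.294 and 0.0890 in Lgr5-Cdx2-Apc, a difference that did not pass (-0.83 ± 0.47 log2, adjusted p = 0.223). Tuft cells of the epithelium also make acetylcholine, and across the 12 libraries Chat followed the tuft list (Pearson's r = 0.833, Spearman's rho = 0.804, a description), while its r with the other 8 members ran from -0.3 to 0.159. That list was at 0.44 to 0.84 in control and at 2.22 and 1.55 with both drivers, where 0 and 1 of its 7 genes were listed at 0; its part in the Chat values was not tested. Much of that rise was Pou2f3, a factor that keratinocytes also express, at 59.2 and 53.3 FPKM with both drivers against 0.0597 to 1.02 in control. Without Pou2f3, left out after its values were seen, the list stood at 0.34 to 0.94 in control and at 1.60 and 0.85 with both drivers, so replicate 2 lay inside the control range, and r with Chat was 0.828.

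Of the developmental genes, Hand2 on chromosome 8 (57320983-57324633, plus strand) was lower and Ret did not pass. Hand2 was at 5.70, 4.79 and 7.74 FPKM in control, 8.70, 3.88 and 3.67 in Cdx2-Apc, 5.34, 0.391, 2.34 and 6.20 in Lgr5-Apc, and 0.181 and 0.124 in Lgr5-Cdx2-Apc. The 2 Lgr5-Cdx2-Apc libraries were the lowest of all 12. Their log2 difference was -2.6 ± 0.61 from control (adjusted p = 0.02) and -2.39 ± 0.61 from Cdx2-Apc (adjusted p = 0.0221). Gut mesenchyme and muscle also express Hand2, and of the members it had the highest correlation with the smooth muscle list (r = 0.871 over 12 libraries that share tissue make-up).

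Ret on chromosome 6 (118151745-118197718, minus strand) was at 1.58, 3.02 and 3.97 FPKM in control, 4.27, 2.23 and 2.10 in Cdx2-Apc, 1.61, 0.780, 1.07 and 4.83 in Lgr5-Apc, and 1.00 and 0.811 in Lgr5-Cdx2-Apc. Its Lgr5-Cdx2-Apc values lay below every control and Cdx2-Apc value and above the lowest Lgr5-Apc value. The differences were -0.97 ± 0.48 log2 from control (adjusted p = 0.168) and -0.98 ± 0.48 from Cdx2-Apc (adjusted p = 0.155).

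Among the genes of neuronal structure and release, Uchl1 and Snap25 were lower in Lgr5-Cdx2-Apc than in control. Uchl1 on chromosome 5 (66676091-66687234, plus strand) was at 5.57, 9.63 and 17.0 FPKM in control, 16.5, 9.27 and 5.60 in Cdx2-Apc, 4.71, 0.0842, 2.64 and 17.7 in Lgr5-Apc, and listed at 0 and 0.317 in Lgr5-Cdx2-Apc. The log2 difference was -3.23 ± 0.94 from control (adjusted p = 0.0389) and -3.20 ± 0.94 from Cdx2-Apc (adjusted p = 0.0348). Among the Lgr5-Apc libraries, replicate 2 lay with the Lgr5-Cdx2-Apc libraries and replicate 4 above every control library.

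Snap25 on chromosome 2 (136713453-136782428, plus strand) was at 3.53, 6.66 and 7.82 FPKM in control, 7.91, 5.72 and 3.78 in Cdx2-Apc, 2.26, 0.643, 1.91 and 10.7 in Lgr5-Apc, and 0.0856 and 0.0475 in Lgr5-Cdx2-Apc. Both Lgr5-Cdx2-Apc libraries lay below all others, including the 4 Lgr5-Apc libraries. They differed by -2.66 ± 0.66 log2 from control (adjusted p = 0.0238) and by -2.63 ± 0.66 from Cdx2-Apc (adjusted p = 0.0209). Endocrine cells of the gut also use Snap25, and the enteroendocrine list was at 2.33 and 0.95 in the Lgr5-Cdx2-Apc libraries against 2.30 to 3.50 in control.

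Elavl4 on chromosome 4 (110203722-110351909, minus strand) was at 1.01, 2.07 and 1.78 FPKM in control, 2.43, 1.99 and 1.16 in Cdx2-Apc, 0.480, 0.0410, 0.272 and 2.39 in Lgr5-Apc, and 0.0483 and 0.0300 in Lgr5-Cdx2-Apc. It was lower than in Cdx2-Apc (-1.43 ± 0.44 log2, adjusted p = 0.04), while the difference from control, -1.31 ± 0.44, did not pass (adjusted p = 0.0603). Tubb3 on chromosome 8 (123411424-123422015, plus strand) was at 1.94, 3.25 and 4.51 FPKM in control, 5.98, 2.37 and 2.14 in Cdx2-Apc, 2.18, 1.24, 2.37 and 6.32 in Lgr5-Apc, and 0.476 and 0.989 in Lgr5-Cdx2-Apc. Its differences of -1.26 ± 0.50 from control and -1.29 ± 0.50 from Cdx2-Apc did not pass (adjusted p = 0.0986 and 0.0834), although its 2 Lgr5-Cdx2-Apc values were the lowest of the 12. A read-through gene, Gm20388, spans Tubb3 on the same strand and was listed at 0 to 9.0 FPKM, so the authors' counting could have split reads between them.

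In all, 4 of the 8 genes tested fell in Lgr5-Cdx2-Apc against control (Vip, Hand2, Snap25, Uchl1), where 8.55% of the 17360 genes tested were called lower. All 8 lay below control in both libraries without overlap, as did 25.3% of all genes, and their median difference was -1.95 log2 against 0.07 over all genes. Against Cdx2-Apc, 5 of 8 fell (the same 4 and Elavl4), where 11.7% of genes were called lower; again all 8 did not overlap, as for 30.4% of genes, with a median of -1.91 against 0.04. Both comparisons use the same 2 Lgr5-Cdx2-Apc libraries. The calls rest on few samples, and calls over all genes became fewer in the same fits. Without Lgr5-Cdx2-Apc replicate 1 or 2, 0 members were called in both comparisons, where 2.53% and 0.0944% of all genes were called lower against control and 4.43% and 0.295% against Cdx2-Apc. Against control the count was 0 without control replicate 3 (2.08% of all genes lower) and 1 without control replicate 2 (3.36%). The sizes moved less: the difference of Vip from control was -3.31 and -3.41 log2 without the first and the second Lgr5-Cdx2-Apc library and -3.16 without control replicate 3, and the median of the 8 genes stayed between -2.06 and -1.85 over the 12 fits that left out 1 library. Against Cdx2-Apc the count was 1 without Cdx2-Apc replicate 1 or 2 (7.03% and 4.93% of all genes lower) and 3 without replicate 3 (5.55%), and the median lay between -2.1 and -1.67. With the squamous list level as a covariate, the counts were 1 against control (1.42% of all genes lower) and 0 against Cdx2-Apc (0.87%), and here the median shrank to -0.89 and -0.63.

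**Figure D2:**
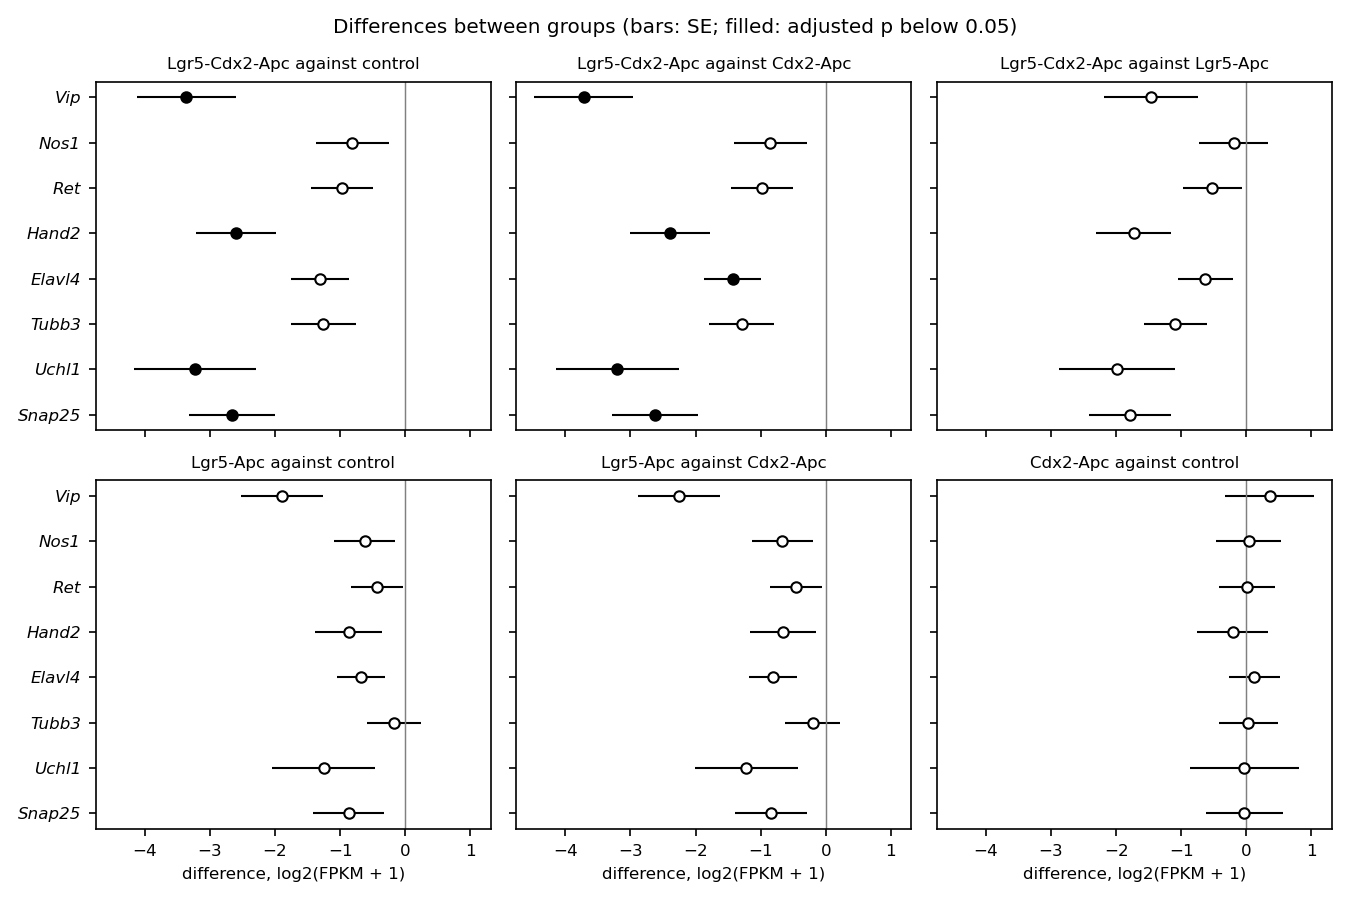
Difference between groups in log2(FPKM + 1) (horizontal axis, first group minus second) for the 8 genes tested in the 6 comparisons, with bars of 1 SE and filled points where the adjusted p was below 0.05. Filled points stand only in the first 2 panels, 4 against control and 5 against Cdx2-Apc, and the Cdx2-Apc against control panel lies around 0.

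Among the Lgr5-Apc libraries these genes spread widely. The mean log2(FPKM + 1) of the 9 genes was 1.60, 0.56, 1.15 and 2.71 in Lgr5-Apc replicates 1 to 4, a wider range than in control (1.81, 2.36 and 2.59) or Cdx2-Apc (2.86, 2.17 and 1.90). Replicate 2 was near the Lgr5-Cdx2-Apc libraries, both at 0.53, and replicate 4 near the highest of the 12. The order ran against the squamous level, which was 4.63, 9.71, 8.77 and 0.94 in the same replicates.

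Against Lgr5-Apc, 0 of 8 genes were called in Lgr5-Cdx2-Apc by limma, where 3.77% of all genes were called lower, and 4 had an unadjusted p below 0.05, as did 13.9% of all genes in this direction. Hand2 (-1.73 ± 0.58 log2, adjusted p = 0.0832), Snap25 (-1.79 ± 0.63, adjusted p = 0.0938) and Tubb3 (-1.09 ± 0.48, adjusted p = 0.16) did not overlap between the groups, as did 14.9% of all genes. Uchl1 (-1.98 ± 0.89, adjusted p = 0.17), Vip (-1.47 ± 0.72, adjusted p = 0.198), Elavl4 (-0.63 ± 0.42), Ret (-0.52 ± 0.45) and Nos1 (-0.19 ± 0.53) overlapped. Without Lgr5-Apc replicate 2, Hand2, Snap25, Uchl1 and Vip were called lower, and the share of all genes called lower rose as well, to 12%. In a fit chosen after seeing the data, without replicates 2 and 3, these 4 genes were called again and 11.6% of all genes were called lower.

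Lgr5-Apc against control gave 0 calls among the 8 genes by limma, where 0.0115% of all genes were called lower, and 1 with an unadjusted p below 0.05, as for 4.77% of all genes in this direction. All 8 differences were negative, from -0.17 ± 0.42 for Tubb3 to -1.89 ± 0.63 for Vip (adjusted p = 0.41), and every gene overlapped, where 3.96% of all genes lay lower without overlap. Against Cdx2-Apc, Lgr5-Apc again gave 0 calls by limma, where 0.0288% of genes were called lower, and 1 gene with an unadjusted p below 0.05, as for 6.01% of genes in this direction. Vip was the one gene without overlap (-2.25 ± 0.63 log2, adjusted p = 0.338), as were 6.76% of all genes: its highest Lgr5-Apc value of 6.91 FPKM lay below the lowest Cdx2-Apc value of 8.96.

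Between Cdx2-Apc and control no difference passed. Cdx2-Apc replicate 1 lay above every control library for all of the genes but Uchl1, with Vip at 25.9 FPKM against at most 14.8 and Chat at 0.659 against at most 0.316, while replicates 2 and 3 did so for Chat in replicate 3 alone. Of the 8 genes, 0 were called by limma and 0 had an unadjusted p below 0.05, where 0.0403% of all genes were called in either direction and 1.64% had such a p. Differences ran from -0.21 ± 0.55 log2 for Hand2 to 0.36 ± 0.68 for Vip, with a median of 0.02 against 0.04 over all genes, and all 8 overlapped, where 2.7% of genes lay lower and 5.88% higher without overlap. With standard errors of 0.39 to 0.84, differences of this size could not be told from the spread between samples, which does not show that the groups are alike.

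The other enteric neuron genes, from lists of transmitters, transcription factors, cytoskeleton and synapse that hold 46 genes, lay mostly below control in Lgr5-Cdx2-Apc. Of the 35 tested, 30 had a negative difference from control and 5 a positive one, with a median of -0.91 log2, and 19 had an unadjusted p below 0.05, as did 36.9% of all genes. Of these 35, 5 passed the test as lower and 3 as higher, where 8.55% of all genes were called lower and 10.5% higher. Among transmitter genes, 2 of 10 fell, Tac1, the precursor of substance P (-3.03 ± 0.87, adjusted p = 0.0378), and Slc5a7, the choline transporter (-0.87 ± 0.26, adjusted p = 0.0435). Tac1 was at 7.25, 13.1 and 14.0 FPKM in control and at 1.17 and 0 in Lgr5-Cdx2-Apc. Penk, the enkephalin precursor, was at -1.66 ± 0.71 and did not pass (adjusted p = 0.119). Of 6 transcription factors and receptors of development 0 were called by limma and 1 had an unadjusted p below 0.05, a smaller share than the 36.9% over all genes. Tlx2, a homeobox factor of enteric neurons, was at -0.77 ± 0.46 (adjusted p = 0.246).

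Of 7 cytoskeletal genes 6 had a negative difference, and of 12 synaptic genes 9, while calls were made in both directions. Nefl, the light neurofilament, fell by 1.34 log2 (SE 0.37, adjusted p = 0.0345) and Map1b, a microtubule protein, fell by 1.34 (SE 0.37, adjusted p = 0.0333). Htr3a, a serotonin receptor subunit, fell by 1.68 (SE 0.43, adjusted p = 0.0266). Map2, a dendritic microtubule protein, rose by 3.02 ± 0.49 (adjusted p = 0.00543), from 3.40, 2.71 and 2.69 FPKM in control to 22.6 and 41.6. The clathrin adaptor gene Snap91 (1.61 ± 0.38, adjusted p = 0.0197) and the ATP receptor gene P2rx2 (1.79 ± 0.42, adjusted p = 0.0199) rose as well. Map2 was also at 11.5 and 8.84 FPKM in Lgr5-Apc replicates 2 and 3, the other libraries with a squamous level of at least 8.75, and at 1.53 to 3.09 in the remaining Lgr5-Apc and Cdx2-Apc libraries. Against Cdx2-Apc the counts were 5 lower and 3 higher of 35, where 11.7% of all genes were called lower and 12.1% higher, and against Lgr5-Apc 0 lower and 4 higher, where 3.77% were lower and 5.22% higher.

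Genes of enteric glia, the companions of these neurons, mostly stayed near control. In Lgr5-Cdx2-Apc against control, 1 of 8 glial genes was called lower, a count near the 8.55% of all genes, and the list median was 0.03. That gene was Gfap, an intermediate filament of mature glia, at -1.30 ± 0.38 log2 (adjusted p = 0.039). Sox10, the transcription factor of glia and their progenitors, was at 0.977, 0.972 and 1.17 FPKM in control and at 1.69 and 0.825 in Lgr5-Cdx2-Apc. Erbb3, a neuregulin receptor that epithelium also expresses, was at -0.65 ± 0.34 against control (adjusted p = 0.197). The mean level of the 9 neuron genes minus that of the glial list was 0.09, 0.42 and 0.41 log2 in control, 0.94, 0.55 and 0.11 in Cdx2-Apc, -0.13, -0.86, -0.26 and 0.69 in Lgr5-Apc, and -1.47 and -1.06 in Lgr5-Cdx2-Apc. The 2 Lgr5-Cdx2-Apc values were the lowest, Lgr5-Apc replicate 2 came next, and this difference of levels was not tested.

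Glial genes are shared with Schwann cells of nerves that reach the gut from outside. Of the 3 tested genes of the myelinating Schwann cell list 0 were called against control by limma and 1 had an unadjusted p below 0.05, where 36.9% of all genes did. Prx, a protein of the myelin sheath, was at 0.41 ± 0.26 log2 (adjusted p = 0.278). Of the 6 genes of sympathetic and sensory neurons only Dbh was tested, at -0.64 ± 0.39 (adjusted p = 0.259).

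**Figure D3:**
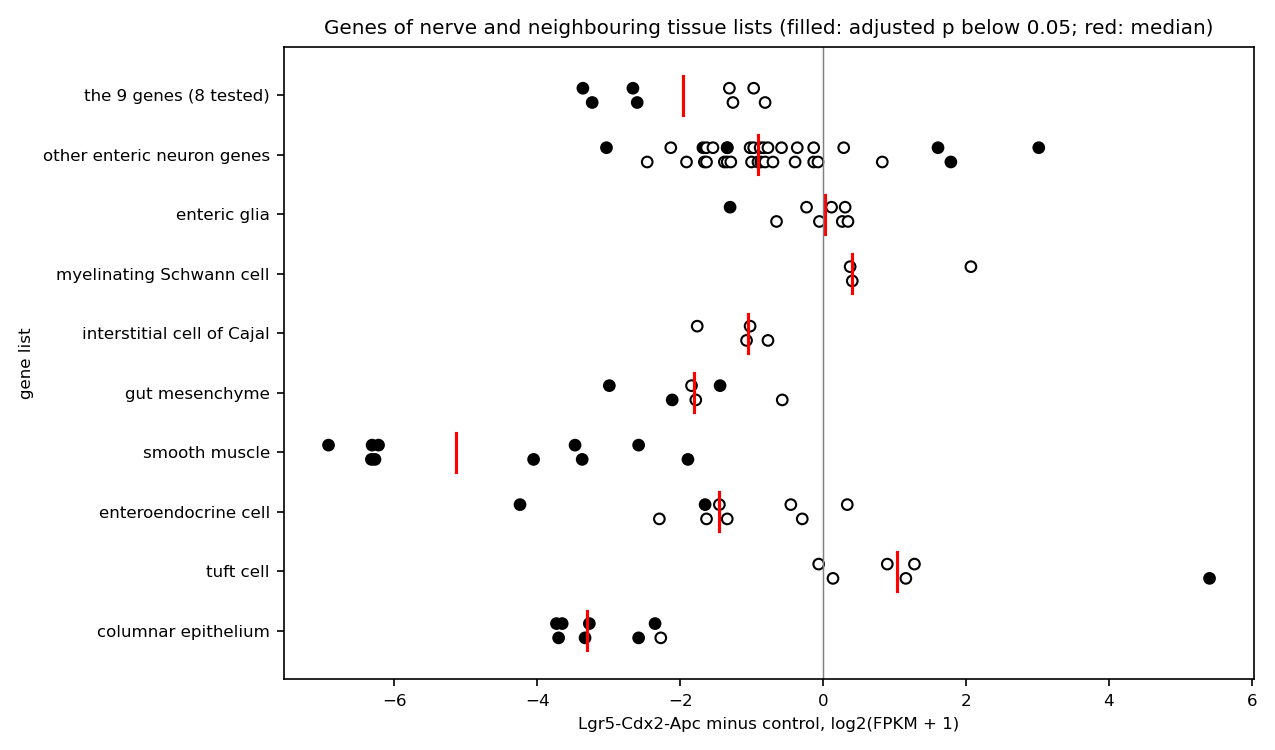
Difference of Lgr5-Cdx2-Apc from control in log2(FPKM + 1) (horizontal axis) for each tested gene of the nerve lists and of neighbouring tissue lists, filled where the adjusted p was below 0.05, with the list median in red. The 8 neuron genes have a median of -1.95 and the glial genes of 0.03, while smooth muscle genes lie at -5.14 and columnar epithelium at -3.30.

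Genes of the muscle that surrounds the myenteric plexus fell in the same libraries. All 10 smooth muscle genes fell in Lgr5-Cdx2-Apc against control, where 8.55% of all genes were called lower, with a median of -5.14 log2. Among them were Actg2 (-6.92 ± 0.69, adjusted p = 0.000488) and Acta2 (-6.22 ± 0.65, adjusted p = 0.000636). The list level was 7.08 to 7.37 in control, 6.15 to 7.55 in Cdx2-Apc, 5.15 to 7.22 in Lgr5-Apc, and 2.84 and 2.22 in Lgr5-Cdx2-Apc, where none of its genes was listed at 0. The level of the 9 neuron genes minus that of smooth muscle was -5.55, -4.72 and -4.77 in control, -4.68, -3.97 and -4.40 in Cdx2-Apc, -5.63, -4.60, -5.26 and -2.51 in Lgr5-Apc, and -2.31 and -1.69 in Lgr5-Cdx2-Apc. Lgr5-Apc replicate 4 thus lay next to the Lgr5-Cdx2-Apc libraries on this measure, with its neuron genes at 2.71, above control. With the smooth muscle level as a covariate, 0 of the 8 neuron genes and 0 of all genes were called against control. In that fit the median of the 8 genes was -1.46 log2 against control, where it had been -1.95. Against Cdx2-Apc it was -1.72, where it had been -1.91. The part of muscle content in the result cannot be told apart from the group in these libraries. Of 6 gut mesenchyme genes 3 fell, against the same 8.55% of all genes. They were the transcription factors Foxf1 (-2.99 ± 0.55), Foxf2 (-2.11 ± 0.48) and Hand1 (-1.44 ± 0.33), the last listed at 0 in both Lgr5-Cdx2-Apc libraries. Interstitial cells of Cajal, the pacemakers that sit beside the plexus, had 0 of 4 genes called against control by limma and 2 with an unadjusted p below 0.05, as for 16% of all genes in this direction, Gpr20 (-1.76 ± 0.56, adjusted p = 0.0516) and Etv1 (-1.02 ± 0.34, adjusted p = 0.0603).

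Epithelial and other markers moved in the same libraries. Against control, 8.55% of all genes were called lower in Lgr5-Cdx2-Apc and 10.5% higher. Of 8 columnar genes 7 fell, for example Krt19 (-3.65 ± 0.79) and Krt8 (-3.70 ± 0.82), and of 9 enteroendocrine genes Insl5 (-4.24 ± 1.03) and Scgn (-1.65 ± 0.49) fell. Of 10 squamous genes Lor (8.16 ± 2.31) and Ivl (4.19 ± 1.26) rose, with none of the 10 listed at 0 in Lgr5-Cdx2-Apc. Of 8 skeletal muscle genes 7 rose, among them Atp2a1 (5.50 ± 1.21) and Mb (5.41 ± 1.22), and of 6 tuft genes Pou2f3 (5.41 ± 1.00). Avil was at 1.28 ± 0.44 (adjusted p = 0.0667). Calls in the enteroendocrine, squamous and tuft lists were few and not far from the shares over all genes. All 10 squamous differences were positive, however, with a median of 5.56 log2 against 0.07 over all genes. The median was -1.45 for the enteroendocrine genes and 1.03 for the tuft genes. Across the 12 libraries the mean level of the 9 genes had r = -0.952 with the squamous level, and -0.94 over the 10 libraries outside Lgr5-Cdx2-Apc, given as a description of libraries that share tissue make-up. With smooth muscle r was 0.711, and 0.39 over those 10, and with glia 0.60 and 0.876. It was 0.939 and 0.897 with the list of interstitial cells of Cajal, and 0.881 and 0.896 with the enteroendocrine list. With skeletal muscle it was -0.877 and -0.777. The part of tissue composition in the result was not tested beyond the covariate and left-out fits above.

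**Figure D4:**
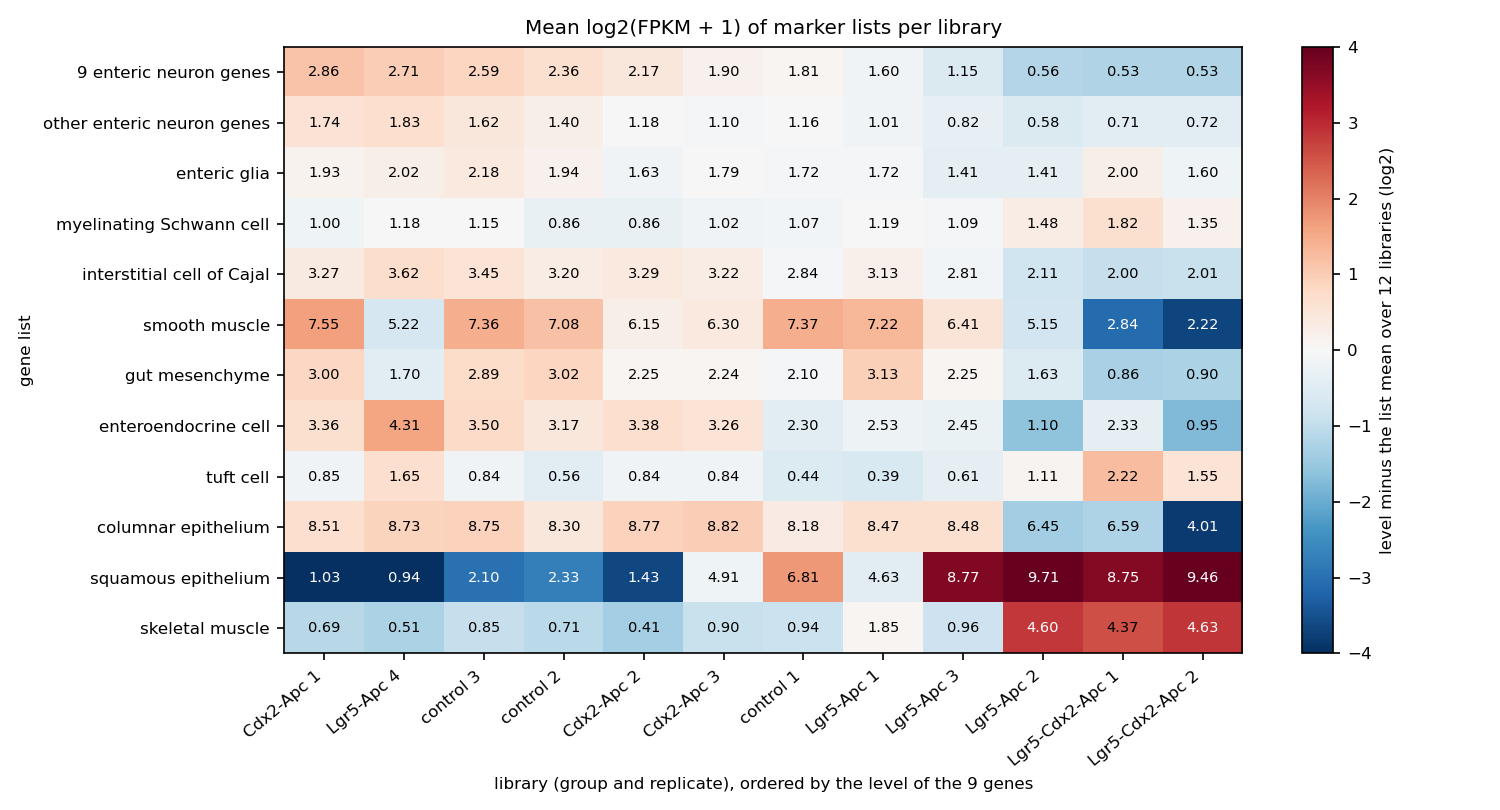
Mean log2(FPKM + 1) of each marker list (rows) in each library (columns, ordered from the highest to the lowest level of the 9 neuron genes), printed in the cells and coloured by the difference from the list's mean over 12 libraries. The neuron level runs from 2.86 to 0.53, and the last 4 columns hold squamous levels of 8.75 to 9.71.

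The genes varied together from library to library, with Chat apart. Among Vip, Ret, Hand2, Elavl4, Tubb3, Uchl1 and Snap25 the pairs had r from 0.815 (Vip and Tubb3) to 0.98 (Uchl1 and Snap25) over the 12 libraries. Nos1 was looser, from 0.64 with Hand2 to 0.874 with Ret, and Chat had -0.3 to 0.159 with the others. After group means were subtracted, the pairs of the 8 tested genes still had r from 0.538 (Nos1 and Hand2) to 0.982 (Elavl4 and Snap25), so the shared variation was also seen between libraries of 1 group. Libraries share depth and tissue make-up, and these values carry no test.

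**Figure D5:**
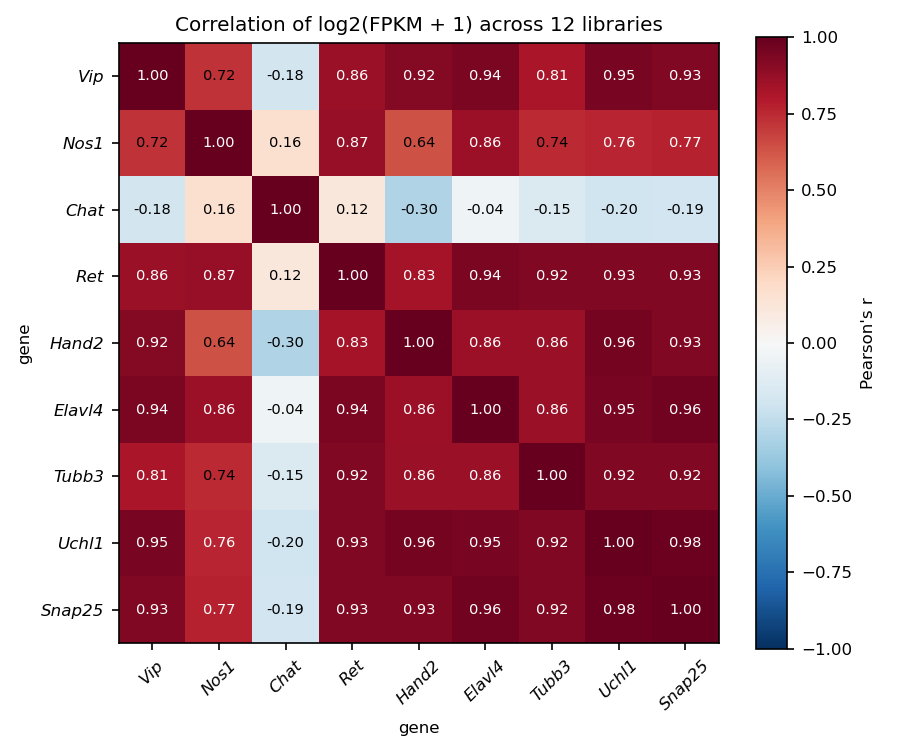
Pearson's r of log2(FPKM + 1) across 12 libraries for each pair of the 9 genes, printed in the cells. Uchl1 and Snap25 reach 0.98, and the Chat row stays between -0.3 and 0.159.

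Of 15331 tested genes outside the lists whose mean reached 1 FPKM, the 8 closest to the mean standardised profile of the 9 were Zcchc12 (r = 0.99), Zcchc18 (0.989), Calb2 (0.984), Pirt (0.984), Kif1a (0.983), Kif5a (0.981), Nap1l5 (0.981) and Nsg2 (0.972), over the 12 libraries. Calb2 encodes calretinin, a calcium-binding protein used to stain enteric neurons, and Kif1a and Kif5a are motors of axonal transport. Calb2 was at 2.13, 3.12 and 5.55 FPKM in control, 10.3, 4.38 and 3.39 in Cdx2-Apc, 2.02, 0, 0.420 and 9.77 in Lgr5-Apc, and 0.0654 and 0.0563 in Lgr5-Cdx2-Apc. Its highest values stood in Cdx2-Apc replicate 1 and Lgr5-Apc replicate 4, the same libraries that led for Elavl4, Tubb3 and Ret.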

How the data were processed

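The data are RNA sequencing of mouse rectum, 12 libraries from 4 groups. Per the labels' protocols, RNA was taken with the RNeasy mini plus kit and DNase, and libraries were made with NEBNext Ultra II directional RNA. STAR, Cufflinks and Cuffdiff on mm10 stand in the submitters' processing notes; versions and the annotation are not given in the sources used here. The authors deposited FPKM values, 1 per gene and library. Whether counting used strand, and how libraries were scaled to each other, is not given in the sources used here. Depth in reads is unknown, so no counting interval was computed, and a gene at 0 is said to be listed at 0.

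From 27831 lines, repeated symbols were reduced to their highest line on average, leaving 27785 genes. To be tested, a gene had to reach 1 FPKM in 2 libraries or more, which 17360 did, among them 8 of the 9 members; Chat did not pass. Values were taken as log2(FPKM + 1), a pseudocount of 1. The 4 groups were compared in 1 limma fit over all libraries (limma 3.58.1, R 4.3.3, empirical Bayes with intensity trend), two-sided, with Benjamini-Hochberg adjustment over all tested genes of a comparison and a threshold of 0.05. The procedure was tested on simulated data. Positions are from GENCODE M21 on GRCm38, where 95.9% of symbols were found, and promoters from RefSeq on GRCm38.p6, where 7 of 9 members were found.

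The members and the 15 other lists (132 genes) were chosen with earlier results of these data known. Named genes were the 9 members, the 2 to 4 genes of each other list with the smallest p in Lgr5-Cdx2-Apc against control, and the 8 genes most like the members; other genes named were chosen after their values were seen. Some genes the rule took are not reported here. Alternatives were other pseudocounts, filters, scalings, weights and moderation, fits on 2 groups, a replicate block, smooth muscle and squamous covariates, and leaving out libraries; 3 were added after seeing the data.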

Additional observations from a re-analysis of the deposited data

Results flagged for a closer look

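Snap25 in Lgr5-Apc replicate 4, at 10.68 FPKM, stood far from the other 3 libraries of its group, which lay between 0.643 and 2.26 FPKM: the gap to the nearest took a share of 0.839 of the group's range. This check was made for 13 quantities in the Lgr5-Apc group, the only one with 4 libraries, and chance marks about 1 in 20. The same library had the lowest squamous level of the 12 (0.94) and the highest enteroendocrine level (4.31, against at most 3.50 elsewhere), with Chga, a granule protein of endocrine cells, at 103.8 FPKM against at most 19.1 in the other 11 libraries. It was also the highest of the 12 libraries for Nos1, Ret, Tubb3 and Uchl1. Vip, Hand2 and Elavl4 were highest in Cdx2-Apc replicate 1 and Chat in Lgr5-Cdx2-Apc replicate 1. The shares for Elavl4 (0.813), Ret (0.796), Tubb3 (0.777) and Nos1 (0.77) lay below the threshold of 0.829, and those of the other genes were smaller. Endocrine cells also use Snap25, and their part in its value was not tested.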

How the results depend on the processing

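The counts of neuron genes called moved with the libraries used. Calls over all genes moved with them. Against control, 4 genes were called in Lgr5-Cdx2-Apc, where 8.55% of all genes were called lower; 2 were with a mean of at least 5 FPKM (which leaves 2 of the genes to test; 11.1% of all genes), 7 with library quality weights (17%), 0 with the smooth muscle covariate (0%) and 1 with the squamous covariate (1.42%). Leaving out 1 library gave 0 to 6 (0.0944% to 12%). Against Cdx2-Apc, 5 were called (11.7%); 3 were with no filter (6.2%), 2 with a mean of at least 5 FPKM (16.5%), and 0 with the smooth muscle (0%) or squamous covariate (0.87%), and leaving out 1 library gave 0 to 7 (0.295% to 15.2%). Against Lgr5-Apc, 0 were called (3.77%); 2 were with a pseudocount of 0.1 (3.74%) and 2 with quality weights (11%), 4 without the 2 squamous-rich Lgr5-Apc libraries (11.6%) or without those and control replicate 1 (11.7%), and leaving out 1 library gave 0 to 4 (0.0413% to 12%). Where 1 Lgr5-Cdx2-Apc library was left, it was assumed to vary like the other groups. The other 3 comparisons gave 0 in every setting run. The causes were not tested.

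Of 1259 recomputed differences (48 gene and comparison pairs), 1101 kept their sign and side of the threshold, 60 lost the call, 34 gained one and 64 changed sign; 0 of those 64 belonged to a call. In Cdx2-Apc against control, quality weights gave Vip -0.09, Nos1 -0.23, Ret -0.30, Elavl4 -0.07 and Tubb3 -0.34. Equal totals over protein-coding genes gave Nos1 -0.01, Ret -0.04 and Tubb3 -0.02, and median-of-ratios scaling gave Ret -0.02. The smooth muscle covariate gave Nos1 -0.08, Hand2 0.11 and Uchl1 0.14, and the squamous covariate Nos1 -0.19, Ret -0.21, Elavl4 -0.08 and Tubb3 -0.17. Without 3 squamous-rich libraries it was Vip -0.03, Nos1 -0.09, Ret -0.25, Elavl4 -0.06 and Tubb3 -0.21. Leaving out 1 library gave Vip -0.04 to 0.67, Nos1 -0.23 to 0.28, Ret -0.25 to 0.22, Elavl4 -0.06 to 0.31, Tubb3 -0.33 to 0.25, Snap25 -0.32 to 0.20 and Uchl1 -0.39 to 0.34.

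In Lgr5-Apc against control, the squamous covariate gave Tubb3 0.19, leaving out the 2 squamous-rich Lgr5-Apc libraries gave Ret 0.07 and Tubb3 0.24, and leaving out 1 library gave Tubb3 -0.51 to 0.06. In Lgr5-Apc against Cdx2-Apc, the squamous covariate gave Ret 0.16, Tubb3 0.36, Uchl1 0.01 and Snap25 0.04, leaving out the 2 or the 3 squamous-rich libraries gave Ret 0.06, Hand2 0.16 and Tubb3 0.20, and leaving out 1 library gave Tubb3 -0.54 to 0.16. In Lgr5-Cdx2-Apc against Lgr5-Apc, the smooth muscle covariate gave Vip 0.05 and Hand2 0.10, the squamous covariate Nos1 0.37 and Ret 0.01, quality weights Nos1 0.37, and leaving out 1 library Nos1 -0.54 to 0.25. The squamous covariate also gave Nos1 0.15 against control, and Nos1 0.34 and Ret 0.17 against Cdx2-Apc.

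Replicate numbers are shared between groups, but same-numbered libraries did not vary together (15 pairs, median r = -0.02, 5 above 0.1). With the replicate block, 5 genes were called in Lgr5-Cdx2-Apc against control (8.89% of all genes called lower) and 5 against Cdx2-Apc (12.9%). Against Lgr5-Apc 0 were called (1.38%), and Nos1 came to 0.10. Lgr5-Apc against control, Cdx2-Apc against control and Lgr5-Apc against Cdx2-Apc also gave 0, where 0, 2 and 8 of all genes were called. With a pseudocount of 0.1, the neuron level relative to smooth muscle was -5.49 in control, -4.74 in Cdx2-Apc and -3.23 in Lgr5-Cdx2-Apc, where it had been -5.01, -4.35 and -2; relative to glia in Lgr5-Cdx2-Apc it was -2.19, and -1.57 with a pseudocount of 0.5, where it had been -1.26.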
